A study of Mus musculus with 3 samples.

Results

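The 9 genes described here encode the core of non-homologous end joining, the repair pathway that closes the DNA breaks made during V(D)J recombination. They are Xrcc5 and Xrcc6, Prkdc, Dclre1c, Xrcc4, Lig4, Nhej1, Polm and Poll, taken by symbol from the 27998 genes of the count tables, and all 9 were found. From C57BL/6J mice, 3 bone marrow populations were sorted and their single cells measured, with 1 droplet library for each population. Of these, LMPP (lymphoid-primed multipotent progenitors) carried the gate cKit+Sca1+Flt3+IL7Ra-B220-, CLP (common lymphoid progenitors) the gate cKit+Sca1+Flt3+/-IL7Ra+B220- and pro-B cells the gate cKit+Sca1-Flt3-IL7Ra+B220+. The labels name no genotype, treatment, age or number of animals for these sorted cells. With 1 library for each population, library and population cannot be told apart, no test between them is possible, and every interval below covers counting error only.

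In V(D)J recombination the RAG1 and RAG2 proteins cut DNA beside antigen receptor gene segments, leaving hairpin-sealed coding ends and blunt signal ends. The Ku heterodimer of XRCC5 (Ku80) and XRCC6 (Ku70) slides onto the ends and recruits DNA-PKcs, the kinase encoded by Prkdc, which activates the hairpin-opening nuclease Artemis, encoded by Dclre1c. DNA polymerases mu and lambda and terminal transferase process the ends, and DNA ligase IV, held by XRCC4 and helped by XLF (encoded by Nhej1), seals them. Pro-B cells rearrange the immunoglobulin heavy chain locus, and loss of some, not all, members of this pathway blocks B and T cell development in mice.

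About 3000 cells were loaded per run according to the labels, and the deposited matrices held 599 (LMPP), 979 (CLP) and 1123 (pro-B) barcodes. Barcodes showing at least 500 genes and no more than 10% of UMIs from mitochondria were analysed, 579, 948 and 1106 in that order, with 4014657, 5967352 and 7367156 UMIs (unique molecular identifiers, each standing for 1 captured RNA molecule). Median depth was 6789, 6258 and 5688 UMIs per cell, and any 2 libraries shared 1 to 3 barcode sequences. The sorted identities were checked on marker genes. Pax5 was at 0 UMIs in LMPP, and the summed level of 8 pro-B markers was 45.1 CPM (UMIs per 1000000 UMIs) for LMPP, 770 for CLP and 13124 for pro-B, while Cd34 and Hlf were at 0 UMIs in pro-B. In CLP, 6 plasmacytoid dendritic marker genes summed to 581 CPM, against 107 in LMPP and 1.36 in pro-B, and 2 of the 6, Klk1 and Cd209d, were at 0 in all 3 libraries.

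The upstream sequences of the 2 genes with the largest differences between libraries, Xrcc6 and Lig4, and of Xrcc5, the Ku partner that differed little, are shown so that the values below can be read beside them. Each window is the 250 bases before a RefSeq transcription start on GRCm38.p6, printed 5′ to 3′ on the strand of the gene. Lig4 has 2 annotated starts. Capitals mark matches, on either strand, to the motifs described after the sequences.
Xrcc6 chr15:82016119-82016368 (+): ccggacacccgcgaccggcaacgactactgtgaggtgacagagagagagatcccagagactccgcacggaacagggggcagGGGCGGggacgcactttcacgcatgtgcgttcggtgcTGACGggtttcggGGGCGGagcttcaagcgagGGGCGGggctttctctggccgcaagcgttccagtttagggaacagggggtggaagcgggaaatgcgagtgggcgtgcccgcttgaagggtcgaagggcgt
Xrcc5 chr1:72307171-72307420 (+): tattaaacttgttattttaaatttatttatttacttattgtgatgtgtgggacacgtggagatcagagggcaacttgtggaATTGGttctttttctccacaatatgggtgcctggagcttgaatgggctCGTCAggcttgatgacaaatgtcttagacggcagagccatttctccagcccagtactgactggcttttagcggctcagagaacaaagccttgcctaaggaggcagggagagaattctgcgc
Lig4 first start, chr8:9977681-9977930 (-): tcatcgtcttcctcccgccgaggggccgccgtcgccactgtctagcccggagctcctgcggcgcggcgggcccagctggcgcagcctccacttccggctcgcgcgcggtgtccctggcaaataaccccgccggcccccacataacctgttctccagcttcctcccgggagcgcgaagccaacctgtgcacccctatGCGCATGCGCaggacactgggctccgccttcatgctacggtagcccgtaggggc
Lig4 second start, chr8:9976312-9976561 (-): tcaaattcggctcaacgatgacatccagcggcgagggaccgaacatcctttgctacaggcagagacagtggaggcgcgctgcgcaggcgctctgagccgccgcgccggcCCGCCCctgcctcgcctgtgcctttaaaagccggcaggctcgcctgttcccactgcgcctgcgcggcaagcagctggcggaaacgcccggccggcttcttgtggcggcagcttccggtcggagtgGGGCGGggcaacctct

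The Xrcc6 window had 65.2% G and C, and the Xrcc5 window 44.8%. The GC box letters GGGCGG, which were found in 32.74% of 32851 promoter windows of this length, occurred 3 times before Xrcc6 and were not found before Xrcc5. They were present before 6 of the 7 members with a window (Dclre1c, Lig4, Nhej1, Polm, Xrcc4 and Xrcc6), so they are not particular to Xrcc6. The letters TGACG, part of the cyclic AMP response element and present in 17.77% of windows, occurred before both Ku genes. The first Lig4 window held overlapping matches to GCGCATGC, letters of the NRF1 site, starting 54 and 52 bases before the start. These letters were present in 2.256% of windows and in no other member with a window, 7 of the 9 genes having 1. The letters CCAAT (33.85% of windows) were present before Xrcc5, Dclre1c and Polm, CCCNNGGG, the EBF core (11.82%), before Polm alone, and CAGGTG, an E-box (17.22%), before none of the 7. The motifs were picked after the windows had been read, the EBF letters were shortened after a longer form had matched no member, and a match is a description of letters, not of binding.

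Among the 9 genes, 2 stood out. Xrcc6 was at 61.8 CPM for LMPP, 286 for CLP and 257 for pro-B, and Lig4 was at 1.25, 1.34 and 27.2. So the higher Xrcc6 level was already present in CLP, and the higher Lig4 level was seen in pro-B alone. Compared by counts of genes at least 2-fold apart, with 10 or more UMIs over both libraries, 1 of 8 measured members was higher in CLP than in LMPP and 0 were lower, where 7.42% and 6.61% of the 11726 genes compared were higher and lower. From CLP to pro-B, 2 of 9 members were higher (Lig4 and Polm) and 0 lower, beside 13.2% and 19.9% of 11877 genes. From LMPP to pro-B, 3 of 9 were higher (Xrcc6, Lig4 and, on 2 and 8 UMIs, Polm) and 0 lower, beside 14.5% and 20.3% of 11676 genes. The members' median log2 ratios were 0.10, 0.08 and 0.29 in the same order, beside -0.01, -0.08 and -0.06 over all genes compared. Where totals left out mitochondrial and ribosomal protein genes, the median of all genes moved by -0.31 for pro-B against CLP and by -0.34 for pro-B against LMPP, the members' medians turned to -0.23 and -0.05, and the higher share of all called genes went from 39.9% to 24.3% and from 41.6% to 25.3%. These 3 comparisons share libraries, so they are not independent of each other. Levels are not ranked between genes. In GENCODE M21 (GRCm38) all 9 are protein-coding: Xrcc5 lies at chr1:72307421-72394952, Prkdc at chr16:15637866-15842235, Dclre1c at chr2:3424131-3464130, Xrcc4 at chr13:89774027-90089608, Nhej1 at chr1:74967139-75125200, Polm at chr11:5827860-5838016 and Poll at chr19:45552275-45560531, with Xrcc6 and Lig4 given below.

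**Figure D1:**
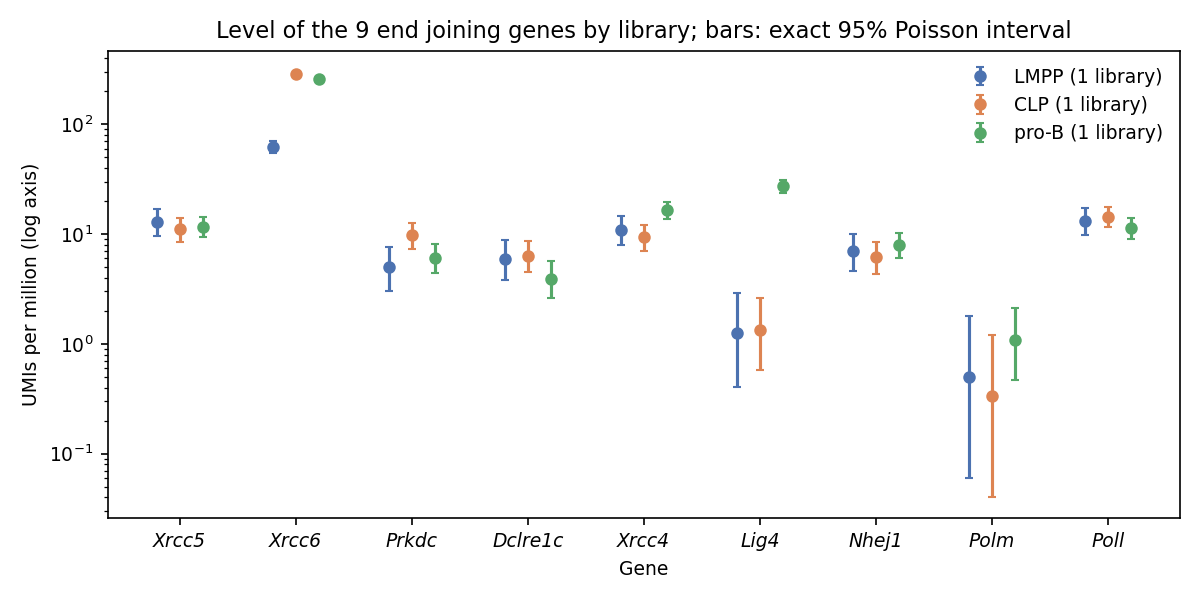
CPM (vertical, log axis) of each of the 9 genes (horizontal) in the LMPP, CLP and pro-B libraries, 1 point per library with its exact 95% Poisson interval. Xrcc6 is high in both CLP (286) and pro-B (257), and Lig4 is high in pro-B (27.2) against 1.25 and 1.34 in the other libraries.

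The Ku genes did not follow each other. Xrcc6 was counted with 248 UMIs for LMPP (61.8 CPM, 95% interval 54.3 to 70.0), 1707 for CLP (286, 273 to 300) and 1893 for pro-B (257, 246 to 269). Its CLP level was 4.63-fold that of LMPP (log2 2.21, 2.02 to 2.41) and its pro-B level 4.16-fold (log2 2.06, 1.87 to 2.25). Of 9181 genes with 50 or more UMIs over LMPP and CLP, 86 had a higher ratio than Xrcc6. Across the settings tried, the CLP over LMPP log2 ratio of Xrcc6 lay between 2.10 and 2.34. The small step from CLP to pro-B (log2 -0.16, -0.25 to -0.06) has no fixed direction: it was -0.47 with totals lacking mitochondrial and ribosomal protein genes, 0.46 with equal weight per cell, 0.37 after thinning and 1.02 among cells with few cell-cycle UMIs.

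Xrcc5, whose protein pairs with that of Xrcc6 in equal numbers, was at 13.0 CPM for LMPP (52 UMIs), 11.1 for CLP (66) and 11.7 for pro-B (86). The 3 intervals overlap, and its log2 ratios were -0.23 for CLP against LMPP, then 0.08 and -0.15 for pro-B against CLP and LMPP. The number of Xrcc6 UMIs for each Xrcc5 UMI was 4.77 for LMPP (3.53 to 6.56), 25.9 for CLP (20.2 to 33.6) and 22.0 for pro-B (17.7 to 27.7). The LMPP ratio lies below both others, whose intervals overlap. Desi1, which lies on the other strand within the annotated span of Xrcc6 (chr15:81987835-82040085 in GENCODE M21, GRCm38), was at 36.9, 97.7 and 130 CPM. Its 3′ end lies 47562 bases from that of Xrcc6. The RefSeq start behind the Xrcc6 window printed above lies inside this GENCODE span, not at its first base, and inside Desi1 (chr15:81992523-82033862). Whether the authors' counting used strand is not given in the sources used here, so the share of Desi1 reads in the Xrcc6 counts was not tested, and the same holds for Xrcc4 with Tmem167 and for Dclre1c with Suv39h2.

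More cells carried Xrcc6, and carried more of it. After each cell was thinned to 2000 UMIs, a UMI of Xrcc6 was found in 13.3% of 573 LMPP cells (10.6 to 16.3), 42.4% of 908 CLP cells (39.2 to 45.7) and 44.6% of 1070 pro-B cells (41.6 to 47.6). Without thinning these shares were 30.4%, 72.2% and 74.8%. Cells with a UMI held 1.08, 1.44 and 1.77 thinned UMIs on average. The 5 cells with most Xrcc6 UMIs held 8.47%, 3.22% and 2.43% of them. Xrcc6 and Xrcc5 UMIs were found together in 1, 11 and 9 thinned cells, close to the 2.26, 9.75 and 9.36 that the product of the 2 shares gives.

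Lig4 encodes the ligase that makes the final seal. It lies at chr8:9969049-9977686 on the minus strand, with no overlapping annotated gene. Lig4 was counted with 5 UMIs for LMPP (1.25 CPM, 0.40 to 2.91), 8 for CLP (1.34, 0.58 to 2.64) and 200 for pro-B (27.2, 23.5 to 31.2). The pro-B level was 20.3-fold the CLP level (log2 4.34, 3.33 to 5.57) and 21.8-fold the LMPP level (log2 4.45, 3.20 to 6.09), while LMPP and CLP overlapped (log2 0.11). Over the settings tried, the pro-B over CLP log2 ratio ran from 4.03 to 6.05. The 200 UMIs came from 171 of 1106 pro-B cells, with 6.50% of them in the top 5 cells. In thinned cells the share with a Lig4 UMI was 0.175% for LMPP, 0.110% for CLP and 6.82% for pro-B (5.39 to 8.50), and 0.691%, 0.844% and 15.5% without thinning. Haemoglobin transcripts, which none of these cells should make, were taken as marks of free RNA. Hbb-bs, highest in pro-B, was found in 0.524%, 0% and 4.30% of thinned cells. Hbb-bt, highest in LMPP, was found in 6.11%, 0.551% and 0.841%. The Lig4 shares in LMPP and CLP rest on 1 thinned cell each, the first below both of these shares and the second between them, so Lig4 was not told apart from free RNA there. The pro-B share lies above both. The members other than Xrcc6 lie below the Hbb-bt share in LMPP as well. Those other than Xrcc6 and Lig4 lie below the Hbb-bs share in pro-B. Of 8 free RNA genes these were the highest there, followed by S100a8 in LMPP (1.22%) and Hba-a1 in pro-B (1.40%). Besides Xrcc6, Xrcc4 (3.32%), Xrcc5 (2.97%), Poll (2.79%) and Dclre1c (1.57%) lie above S100a8 in LMPP. Besides Xrcc6 and Lig4, Xrcc4 (3.08%), Poll (2.62%), Xrcc5 (1.96%) and Nhej1 (1.78%) lie above Hba-a1 in pro-B. The part of free RNA in the members' levels, and so in the folds over them, was not tested.

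Xrcc4, the scaffold that stabilises ligase IV, was at 11.0 CPM for LMPP (44 UMIs), 9.38 for CLP (56) and 16.4 for pro-B (121). The pro-B level was higher than that of CLP by log2 0.81 (0.34 to 1.29), below 2-fold, and LMPP and CLP overlapped. Its overlapping neighbour on the other strand, Tmem167, was at 87.2, 87.0 and 169 CPM. Nhej1, the XLF gene, was at 6.97, 6.20 and 8.01 CPM (28, 37 and 59 UMIs), and all its intervals overlap. The 3 genes of the ligase complex together were at 19.2, 16.9 and 51.6 CPM, with Lig4 giving 27.2 of the pro-B sum. The number of Xrcc4 UMIs for each Lig4 UMI was 8.80 for LMPP (3.50 to 28.4), 7.00 for CLP (3.32 to 17.0) and 0.605 for pro-B (0.479 to 0.762).

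**Figure D2:**
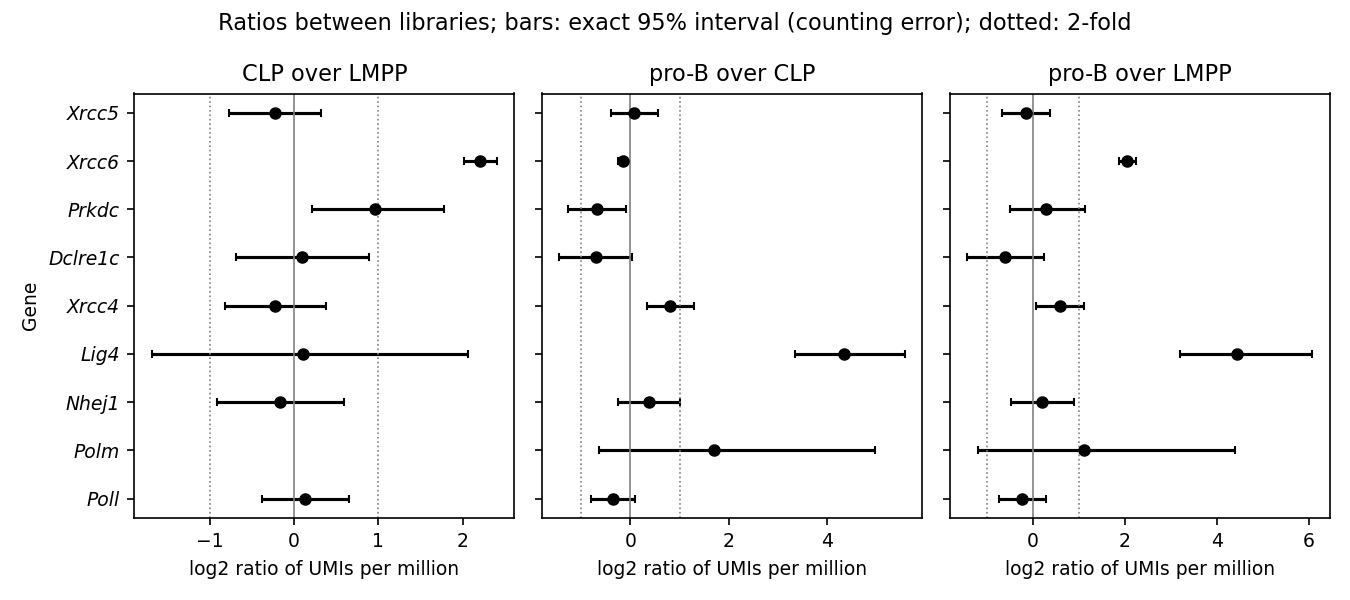
log2 ratios of CPM (horizontal) of the 9 genes (vertical) for the 3 pairs of libraries, with exact 95% intervals for counting error and dotted lines at 2-fold. Xrcc6 stands to the right in both ratios to LMPP and Lig4 in both ratios of pro-B; Polm has no point for CLP over LMPP because both libraries lie under the floor of 3 UMIs.

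The genes of hairpin opening had few UMIs in every library. Prkdc, the DNA-PKcs gene, was at 4.98 CPM for LMPP (20 UMIs), 9.72 for CLP (58) and 6.11 for pro-B (45). Its CLP over LMPP ratio, log2 0.96 (0.21 to 1.78), lay just under 2-fold, and it passed 2-fold under 5 of the settings tried. Its pro-B level was lower than that of CLP by log2 -0.67 (-1.27 to -0.08). Dclre1c, the Artemis gene, was at 5.98, 6.37 and 3.94 CPM (24, 38 and 29 UMIs), and its 3 intervals overlap. It shares its 3′ end region with Suv39h2 on the other strand, which was at 4.23, 4.86 and 11.8 CPM.

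Neither gap-filling polymerase showed a 2-fold difference that these counts could resolve. Poll (DNA polymerase lambda) was at 13.2, 14.4 and 11.3 CPM (53, 86 and 83 UMIs), with overlapping intervals. Polm (DNA polymerase mu) was counted with 2 UMIs for LMPP, 2 for CLP and 8 for pro-B, the first 2 under the floor of 3 UMIs. Its ratio of pro-B over CLP passed 2-fold (log2 1.70), but the interval ran from -0.63 to 4.97 and a difference was not detectable at this depth. The pro-B over LMPP ratio of Polm, log2 1.12 (-1.20 to 4.40), had the same limit and was 0.78, under 2-fold, with totals lacking mitochondrial and ribosomal protein genes. Counted over all 9 genes, thinned cells with UMIs of 2 or more members made up 2.79% of LMPP, 5.40% of CLP and 9.07% of pro-B cells, and 77.3%, 50.7% and 46.6% had none.

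Within the pro-B library, Xrcc6 and Lig4 took a larger share of the RNA in cells with few cell-cycle UMIs. Cells were classed on thinned counts by 3 or more UMIs of an 18-gene G2/M list, else of an 18-gene S phase list, else as having few cycle UMIs. Pro-B cells fell into 334 with few cycle UMIs, 169 in S and 567 in G2/M, and CLP cells into 585, 264 and 59. In pro-B cells Xrcc6 was at 657 CPM with few cycle UMIs (611 to 706), 209 in S (184 to 236) and 164 in G2/M (153 to 176). The G2/M level was lower than the first by 4.01-fold. In CLP the 3 levels were 324, 231 and 242 CPM, and in LMPP 67.1, 52.6 and 52.9. Pro-B Lig4 was at 55.4 CPM with few cycle UMIs (42.6 to 70.9), 15.8 in S and 21.8 in G2/M (17.9 to 26.3). Pro-B Xrcc4 was at 29.0, 13.3 and 13.9 CPM, while Xrcc5 (10.6, 14.1 and 11.5) and Poll (13.2, 6.65 and 11.7) had overlapping intervals.

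Depth moved with these classes, and part of the difference depends on the unit. The median depth of pro-B cells was 3060 UMIs with few cycle UMIs, 6362 in S and 8315 in G2/M, so 1 UMI weighs more on the CPM scale in the first class. Per cell, Xrcc6 was still higher, at 2.24 UMIs with few cycle UMIs against 1.44 in G2/M (log2 0.64). Lig4 was at 0.189 and 0.190 UMIs per cell and Xrcc4 at 0.0988 and 0.122, so neither was higher per cell in the class with few cycle UMIs. The summed level of the 8 pro-B markers also differed, at 23254 CPM with few cycle UMIs and 10819 in G2/M. So did the 7 multipotent markers (128 and 45.6 CPM) and the 6 myeloid markers (142 and 71.6 CPM), while mitochondrial UMIs were 2.32% and 2.02%. Over all pro-B cells, 1 gene, Lyz2, gave 606 of the 609 myeloid marker UMIs, and Mpo was at 0. Cd27 gave 279 of the 444 multipotent marker UMIs, and Cd34 and Hlf were at 0. These sums thus do not stand for their whole lists. The part of RNA content and of other cell types in these class differences was not tested. At an equal depth of 2000 UMIs, cells with an Xrcc6 UMI made up 67.7% of the pro-B cells with few cycle UMIs (62.4 to 72.7), 43.2% in S (35.6 to 51.0) and 31.4% in G2/M (27.6 to 35.4). For Lig4 these shares were 11.4% (8.18 to 15.3), 4.73% (2.07 to 9.11) and 4.76% (3.16 to 6.85).

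Compared class by class, Xrcc6 was higher in CLP than in LMPP by log2 2.27 with few cycle UMIs, 2.14 in S and 2.20 in G2/M. From CLP to pro-B the sign of the CPM ratio depended on the class: 1.02 (0.89 to 1.16) with few cycle UMIs, -0.15 (-0.38 to 0.08) in S and -0.56 (-0.84 to -0.27) in G2/M. Lig4 was higher in pro-B than in CLP in every class, by log2 5.60 (4.17 to 7.52) with few cycle UMIs, 3.34 (1.58 to 5.74) in S and 3.41 (0.90 to 8.72) in G2/M, with 4, 3 and 1 UMIs behind the CLP values. For Xrcc4 the ratio was 1.81 (1.04 to 2.58) with few cycle UMIs, 0.09 (-0.92 to 1.06) in S and 2.76 (0.24 to 8.09) in G2/M, the last with 1 UMI behind the CLP value. All these ratios are of CPM, and cells with few cycle UMIs had a median of 6029 UMIs in CLP against 3060 in pro-B. In this class Xrcc6 had 1132 UMIs in 585 CLP cells and 747 in 334 pro-B cells. Xrcc4 had 29 and 33 UMIs in the same cells. Both rises are therefore smaller per cell than as CPM.

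**Figure D3:**
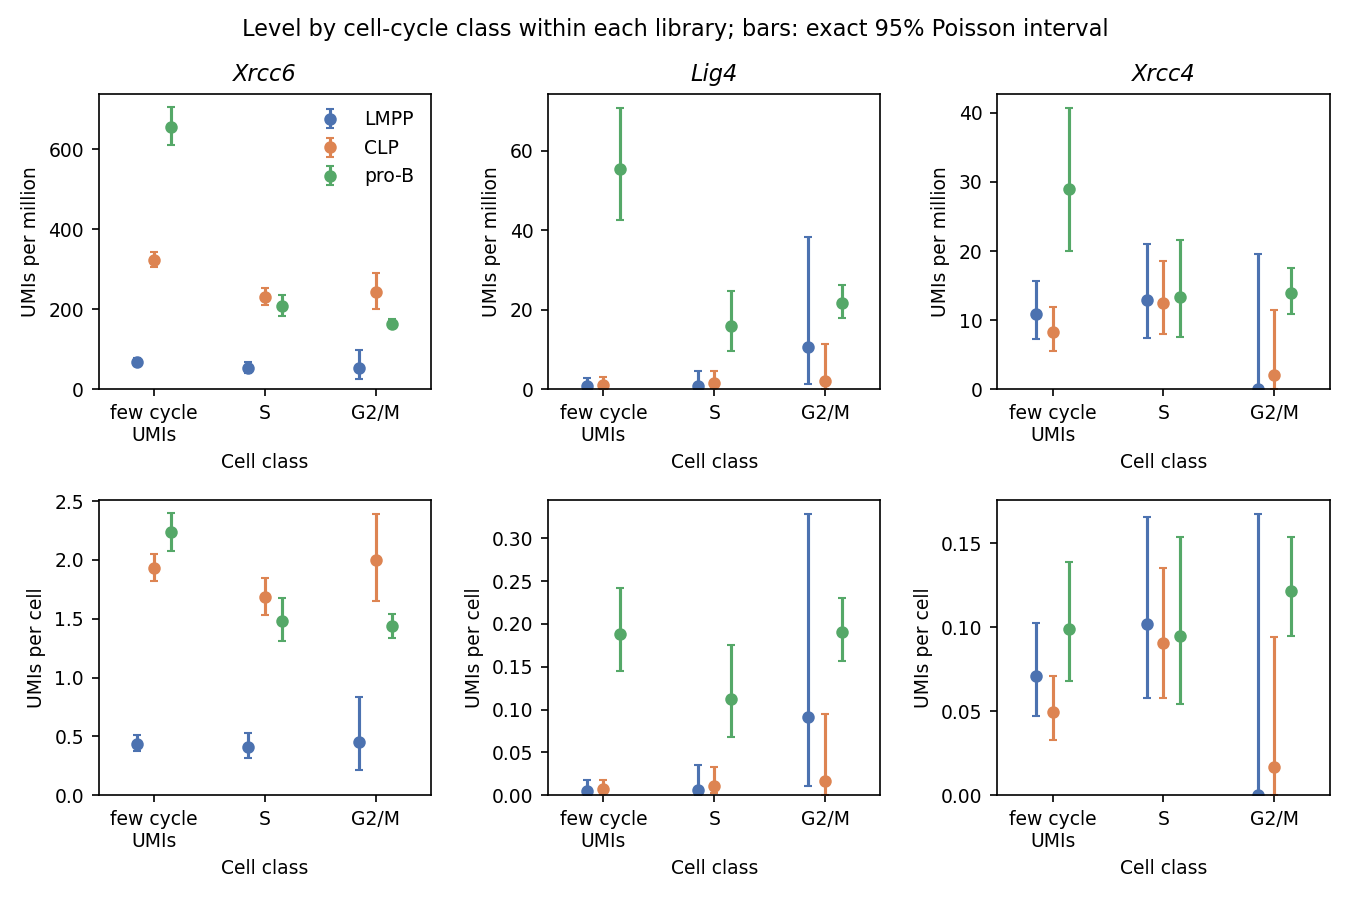
Xrcc6, Lig4 and Xrcc4 by cell-cycle class (horizontal) in each library, as CPM (upper row) and UMIs per cell (lower row), with exact 95% Poisson intervals. Pro-B cells with few cycle UMIs have the highest Xrcc6 on both scales (657 CPM, 2.24 UMIs per cell), while Lig4 per cell is about equal in the first and last class (0.189 and 0.190).

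Within CLP, Xrcc6 was higher in cells with an Ebf1 UMI and no Pax5 UMI than in cells with neither. Ebf1 and Pax5 encode B lineage transcription factors and Ly6d marks B-biased CLP. CLP cells without a thinned UMI of any of them (322 cells) had 230 CPM of Xrcc6 (210 to 250), those with Ly6d alone (213 cells) 243 (218 to 270), those with Ebf1 without Pax5 (342 cells) 377 (351 to 404) and those with Pax5 (31 cells) 304 (225 to 402). The class with Ebf1 lies above the first 2, whose intervals overlap, and the Pax5 class overlaps its neighbours. Among CLP cells with few cycle UMIs the order was 235, 268, 422 and 443 CPM. In thinned cells of all cycle classes, the share with an Xrcc6 UMI was 38.8%, 31.9%, 52.3% and 41.9% in the same order. The Pax5 share had a wide interval (24.55 to 60.92). CLP cells without a thinned UMI of any of the 3 genes also lay above the LMPP level of 61.8 CPM, but their full counts can hold such UMIs. Lig4 had 1 to 3 UMIs in each of these classes, so no difference could be seen.

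Cells with a Rag1 or Rag2 UMI had more Xrcc6, while Xrcc5 was lower in such cells in pro-B but not in CLP. The classes were called on thinned counts, so cells without such a UMI are not cells lacking Rag transcripts. In full counts this class still held 178 Rag1 and 213 Rag2 UMIs in pro-B, and 160 and 127 in CLP. In pro-B Xrcc6 was at 386 CPM in 337 cells with such a UMI and 208 in 733 cells without (log2 0.89, 0.75 to 1.04). Both Rag genes were themselves higher with few cycle UMIs than in G2/M (Rag1 at 220 and 40.5 CPM, Rag2 at 167 and 61.1), and within the cells with few cycle UMIs the Xrcc6 levels were 729 and 589 (log2 0.31, 0.10 to 0.52). In CLP, over all cycle classes, they were 337 and 279 (log2 0.27, 0.09 to 0.46). Xrcc5 went the other way in pro-B, at 4.23 CPM with a Rag UMI (7 UMIs) and 14.0 without (79), log2 -1.73 (-3.09 to -0.62), and within cells with few cycle UMIs its 5 and 7 UMIs gave log2 -0.41 (-2.41 to 1.46). In CLP the sign of Xrcc5 was the opposite, log2 0.81 (-0.13 to 1.67) on 15 and 50 UMIs. Within CLP cells with few cycle UMIs it was 1.16 (0.05 to 2.18) on 12 and 28 UMIs. Lig4 in pro-B was at 36.9 and 22.9 CPM, and within cells with few cycle UMIs at 59.6 and 51.5 (log2 0.21, -0.55 to 0.97). CLP cells with UMIs of 2 or more dendritic marker genes (205 cells, with 502 more cells at 1 gene) had 240 CPM of Xrcc6, against 299 in the 645 cells with fewer than 2 dendritic and fewer than 2 innate marker genes. The CLP over LMPP log2 ratio of Xrcc6 without the 82 LMPP and 303 CLP cells with 2 or more marker genes of either list was 2.34, cells with 1 such gene being kept.

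**Figure D4:**
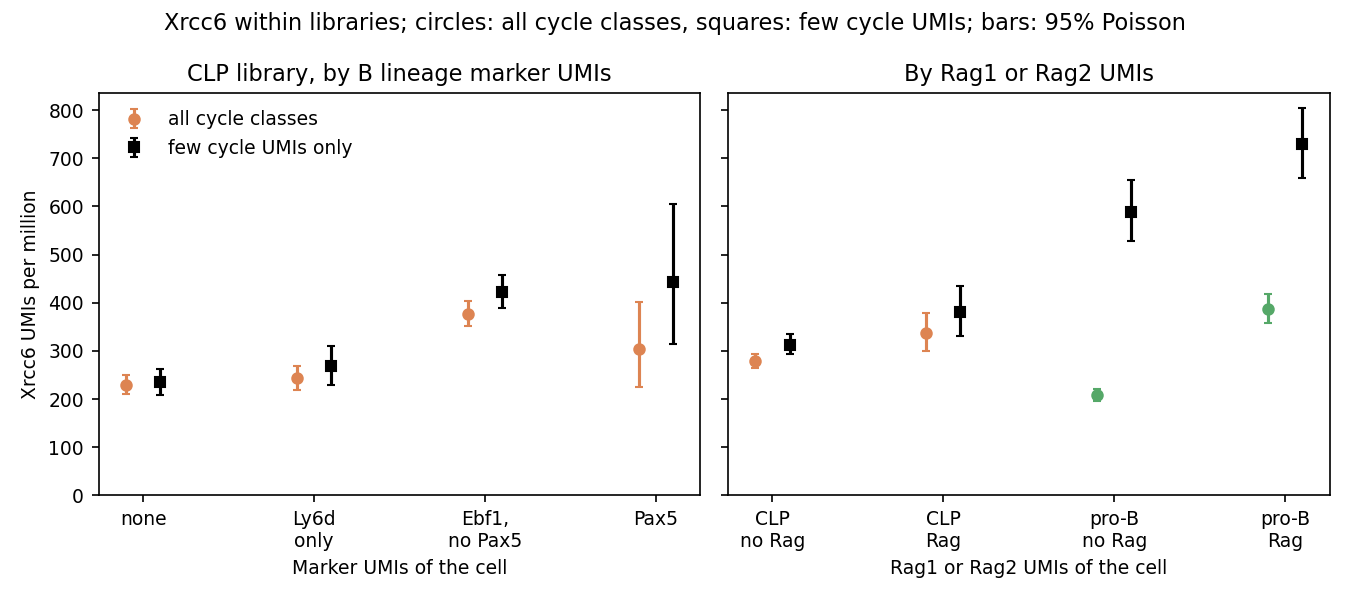
Xrcc6 CPM (vertical) by B lineage marker UMIs in CLP (left) and by Rag1 or Rag2 UMIs in CLP and pro-B (right), with exact 95% Poisson intervals; circles are all cycle classes and squares cells with few cycle UMIs. CLP cells with Ebf1 and no Pax5 stand at 377 against 230 in cells with none, and the gap between pro-B cells with and without Rag UMIs is smaller among squares (729 and 589) than among circles (386 and 208). All classes were called on thinned counts, so a cell classed as without a UMI can hold one in its full counts.

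The genes that act before and beside end joining gave a mixed picture. Rag1 was at 1.99 CPM for LMPP, 58.8 for CLP and 73.0 for pro-B, and Rag2 at 6.48, 37.5 and 79.1. Both lie within the annotated span of B230118H07Rik (52.6, 10.2 and 15.9 CPM), Rag1 on the same strand and Rag2 on the other. The part of its reads in their counts was not tested. Dntt, which encodes terminal transferase, was at 405.5, 1803 and 1354. Of 8 accessory end joining genes, 0 differed 2-fold between CLP and LMPP and 2 had more in the pro-B library than in CLP, Tdp1 (10.4 and 31.9 CPM) and Tdp2 (20.4 and 53.1), which remove protein adducts from DNA ends. Of 9 genes of alternative end joining and single-strand repair, 1 was higher in CLP than in LMPP, Parp1 (84.2 and 196 CPM), which encodes a sensor of DNA breaks. In pro-B over CLP, 4 of the 9 were higher: the ligase gene Lig1 (90.0 and 200 CPM), the scaffold gene Xrcc1 (22.5 and 74.5), the end resection gene Rbbp8 (11.6 and 29.6) and the polymerase theta gene Polq (1.51 and 4.34), the last named after its values were seen. With totals lacking mitochondrial and ribosomal protein genes, the ratio of Lig1 was below 2-fold (log2 0.84). Of 15 genes of the break response, 0 differed between CLP and LMPP and 3 had more in the pro-B library than in CLP, the histone gene H2afx (134 and 1089 CPM) and the chromatin protein genes Hmgb1 (1100 and 4015) and Hmgb2 (495 and 3575). Beside these counts, 13.2% of all genes compared were higher and 19.9% lower in pro-B than in CLP, and with lists of 8 to 15 genes nothing particular to a list is read from them. No gene of these 3 lists was 2-fold lower in any of the comparisons, but with totals lacking mitochondrial and ribosomal protein genes Lig3, Atm and Trp53bp1 were 2-fold lower in pro-B than in CLP, and Paxx, Lig3 and Trp53bp1 lower than in LMPP. All 18 genes of the G2/M list were at least 2-fold above CLP in pro-B as well, beside which these counts stand, and the part of the cell cycle in them was not tested.

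Over the plane of the 2 log2 ratios, CLP over LMPP and pro-B over CLP, among 3154 genes with 50 CPM or more in a library, the 5 genes nearest to Xrcc6 were Dntt (distance 0.265), Evl (0.401), Atp1b3 (0.416), Atp13a3 (0.485) and Arpp21 (0.574). Likeness rests on 3 libraries. The nearest to Lig4 were Hmmr (0.131), Prep (0.224), Cdk1 (0.307), Pbk (0.359) and Fam64a (0.365). Hmmr and Cdk1 belong to the G2/M list that defines the cycle classes. The CLP over LMPP ratio of Lig4 rests on 8 CLP and 5 LMPP UMIs, with an interval from -1.69 to 2.06. Its pro-B over CLP interval runs from 3.33 to 5.57. Both intervals are wider than these distances, so which genes lie nearest to Lig4 is not resolved. Within pro-B cells the likeness to Pbk did not hold: Pbk was at 18.5 CPM with few cycle UMIs and 202 in G2/M, opposite to Lig4 on this scale (55.4 and 21.8), while per cell Pbk was at 0.0629 and 1.76 UMIs and Lig4 at 0.189 and 0.190. Fam64a went the way of Pbk, its CPM being higher in G2/M than with few cycle UMIs by log2 3.44 (2.79 to 4.18). Prep, a peptidase gene, had the same order as Lig4, 422 and 164 CPM. Among the genes near Xrcc6, Evl was at 215 and 80.5 CPM, Dntt at 2108 and 1179, and Atp1b3 at 341 and 330 CPM in these 2 classes.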

How the data were processed

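Single-cell RNA was measured in 3 sorted bone marrow populations, 1 library each, with the Chromium 3′ v2 chemistry, per the labels. The deposited matrices hold unnormalized counts of UMIs for every gene in every barcode. Cell Ranger and the build mm10 are named in the submitters' processing notes, and the version, annotation, strand setting and cell-calling rule were not given in the sources. Cultured iLS cells, named in the labels too, were not analysed here. The members and gene lists were chosen with earlier results of these data known.

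Counts were summed over cells (at least 500 genes, mitochondrial UMIs up to 10%) and divided by the library total (CPM). Intervals are exact 95% Poisson, Clopper-Pearson for shares of cells, and the exact conditional interval for ratios. Ratios were computed for genes with 10 or more UMIs over both libraries, a library at 0 being set to a floor of 3 UMIs. Cells were thinned once to 2000 UMIs (6, 40 and 36 shallower cells of LMPP, CLP and pro-B left out); classes were called on thinned counts and levels summed over full counts. Cells thus classed are not replicates, and CPM, UMIs per cell and thinned values are given where they differ. Doublets were scored with scrublet in scanpy 1.11.5 at an expected rate of 1% (38, 12 and 1 calls) and kept, their removal being an alternative. Positions are from GENCODE M21 (GRCm38) and promoters from RefSeq (GRCm38.p6), for 7 of the 9 members. Paxx and Cyren were matched by Ensembl identifier.

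Named genes are the 9 members, Rag1, Rag2 and Dntt, up to 4 genes by UMIs of each pathway list that differed at least 2-fold with 50 or more UMIs, the 5 genes nearest to Xrcc6 and to Lig4, and overlapping neighbours. Ratio intervals were tested on simulated counts. Python 3.11.15, NumPy 2.4.6, SciPy 1.17.1 and pandas 2.3.3 were used.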

Additional observations from a re-analysis of the deposited data

How the results depend on the processing

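With 1 library for each population no replicate can be left out, and no paired analysis was possible because each group has 1 sample. Of 203 log2 ratios of single members under the alternative settings, 182 stayed inside the counting interval of the reported value and 21 moved outside it. The number of members at least 2-fold higher in CLP than in LMPP was 2, with Prkdc added, for all barcodes, without scrublet calls, without cells with 2 or more dendritic or innate marker genes, among cells with few cycle UMIs and after thinning. For pro-B over CLP it was 1, Polm being lost for too few UMIs, without those marker-rich cells, after thinning and with a minimum of 50 UMIs, and 3 among cells with few cycle UMIs (Lig4, Xrcc4 and Xrcc6). For pro-B over LMPP, 3 in the reported setting, it was 2 with totals lacking mitochondrial and ribosomal protein genes, without the marker-rich cells and with 50 UMIs, and 4 after thinning (Xrcc6, Lig4, Prkdc and Nhej1). In the other direction 1 of 9 members, Dclre1c at log2 -1.01, was at least 2-fold lower in pro-B than in CLP. That was with totals lacking mitochondrial and ribosomal protein genes, where 27.4% of all genes compared were lower. Over the settings that kept the minimum of 10 UMIs, 6.81% to 8.65% of all genes compared were higher in CLP than in LMPP. For pro-B over CLP that share ran from 8.81% to 15.59%, and for pro-B over LMPP from 9.58% to 16.95%. With 50 or more UMIs, 1216 of 9549 genes were higher for pro-B over CLP and 1318 of 9245 for pro-B over LMPP. In 2 alternatives chosen after seeing the data, the log2 ratio of pro-B cells with few cycle UMIs over G2/M cells (4.01-fold for Xrcc6 as CPM) was 0.64 as UMIs per cell and 1.72 as thinned UMIs per cell; for Lig4 (1.35) it was -0.014 and 1.35, and for Xrcc4 (1.06) -0.30 and 1.06. Depth limits Polm in all 3 libraries and Lig4 in LMPP and CLP, where 2 to 8 UMIs were counted.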
